A study of Mus musculus with 2 samples.

Results

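The 4 surfactant protein genes Sftpc, Sftpb, Sftpa1 and Sftpd were examined among the 28692 genes of 2 droplet single-cell RNA-sequencing libraries, both of epithelial cells sorted from mouse lung. The rows were those that carry these 4 symbols, and each was found once in both libraries. The tumor-bearing library came from a wild type C57BL/6 mouse, 14 days after 1000000 luciferase-labelled LLC cells were injected under the skin of its back. LLC is Lewis lung carcinoma, a transplantable mouse lung cancer line. The control library came from an untreated wild type C57BL/6 mouse without a tumor. Both mice shared the preparation: lungs were digested with collagenases and DNase, and CD45- SftpC+ cells were sorted by flow cytometry. Ages and sexes of the mice are not given in the sources used here. Each group had 1 library, so no difference between them has a replicate check and no test was made. A difference between libraries cannot be told apart from one between mice. Intervals are exact 95% intervals and cover counting error only.

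Pulmonary surfactant is a film of lipid and protein that lowers surface tension in the alveoli. Sftpb and Sftpc encode the small hydrophobic proteins SP-B and SP-C, which are cut from larger precursors, stored with lipid in lamellar bodies and needed to spread the film. Sftpa1 and Sftpd encode SP-A and SP-D, large water-soluble collectins that bind sugars on microbes and act in innate defence. Alveolar type 2 (AT2) cells make all 4 proteins. Club cells, the secretory cells of the small airways, are known to make SP-B, SP-A and SP-D but not SP-C.

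On the mm10 build, Sftpc (ENSMUSG00000022097) lies at chr14:70520949-70524081 on the minus strand, and Sftpb (ENSMUSG00000056370) at chr6:72304610-72314371 on the plus strand. Sftpa1 (ENSMUSG00000021789, chr14:41131782-41136452, plus strand) and Sftpd (ENSMUSG00000021795, chr14:41172214-41185149, minus strand) are neighbours, 35761 bases apart with Mbl1, another collectin gene, between them. No annotated gene measured in the files overlaps any of the 4. RefSeq promoter sequences (GRCm38.p6) were at hand for Sftpb and Sftpa1, and are shown because in club-like cells both genes stood above the level that free RNA gives, a result described further on. The 250 bases before the RefSeq start are printed on the plus strand, at chr6:72304360-72304609 for Sftpb and chr14:41131538-41131787 for Sftpa1, with the motif matches in capitals. For Sftpa1 the RefSeq start lies a few bases inside the gene as annotated above, so the window runs slightly into it.
Sftpb: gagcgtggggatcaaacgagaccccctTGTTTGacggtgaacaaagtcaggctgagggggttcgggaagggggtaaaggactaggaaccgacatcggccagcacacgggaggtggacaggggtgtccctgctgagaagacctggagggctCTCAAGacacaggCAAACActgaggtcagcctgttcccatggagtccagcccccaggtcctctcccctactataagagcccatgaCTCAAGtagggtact
Sftpa1: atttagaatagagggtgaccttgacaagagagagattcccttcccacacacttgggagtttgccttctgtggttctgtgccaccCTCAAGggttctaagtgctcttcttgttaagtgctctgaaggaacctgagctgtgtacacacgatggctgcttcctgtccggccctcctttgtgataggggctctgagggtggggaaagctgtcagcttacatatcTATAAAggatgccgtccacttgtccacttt
Both strands were searched for CTCAAG, the core bound by the lung transcription factor NKX2-1, for the FOXA core as TGTTTG or TGTTTA, and for the TATA box TATAAA. No 2 matches overlapped. CTCAAG stood 100 and 15 bases before the start of Sftpb and 166 bases before that of Sftpa1. It occurs in 13.3% of the 32851 promoter windows of the same length. TGTTTG stood 223 and 87 bases before the start of Sftpb (capitals CAAACA for the match on the other strand), against 16.0% of all promoters. TATAAA stood 30 bases before the start of Sftpa1 (12.4% of all promoters), and TGTTTA (12.03%) was in neither window. These matches describe letters in the sequence and not binding.

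The libraries held 84448360 UMIs (tumor-bearing) and 91498124 UMIs (control), where a UMI counts 1 captured transcript. Barcodes with at least 2000 UMIs numbered 8193 and 11007. Filters left 7632 tumor-bearing and 10021 control cells. The libraries shared 128 of those barcodes, where random draws from the barcode list give 122.3. A cell was counted as AT2 when Sftpc made up at least 15% of its UMIs, which took in 6263 tumor-bearing cells (82.1%) and 9082 control cells (90.6%), with medians of 8878 and 6838 UMIs. The Sftpc level of AT2 cells follows from this rule and from the sort and is a description. The cut fell in a sparse stretch, since 1213 tumor-bearing and 689 control cells had under 3% Sftpc and only 102 and 131 had 10 to 15%. Cells just outside the threshold, at 13 to 15% Sftpc, had medians of 1.04% and 1.00% Sftpb, while cells just inside, at 15 to 17%, had 1.08% and 1.10%. The other classes were clusters made without the 4 genes and named from markers. All 12 fixed AT2 markers were detected in AT2 cells, at a sum of 52929 CPM (UMI counts scaled to 1000000 per profile) in tumor-bearing and 53478 CPM in control cells. Markers of other types in the same cells summed to 15766 and 12704 CPM (club), 2668 and 2477 CPM (AT1), 169 and 53.2 CPM (endothelial) and 31.0 and 0.640 CPM (leukocyte). Their part in the results was not tested.

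In AT2 cells the 4 genes together made up 31.7% of all UMIs (tumor-bearing) and 31.4% (control). Sftpc alone held 26.3% in each. Sftpa1 followed with 3.24% in tumor-bearing and 3.12% in control cells, Sftpb with 1.57% and 1.54%, and Sftpd with 0.527% and 0.477%. These are shares of captured transcripts and were not divided by gene length, so the order is that of UMIs. AT2 cells held nearly all UMIs of the 4 genes found in cells, 95.8% (tumor-bearing) and 97.7% (control) for Sftpb, 98.1% and 98.4% for Sftpc, 97.2% and 97.8% for Sftpa1, and 96.2% and 97.01% for Sftpd. AT2 cells also were 82.1% and 90.6% of the kept cells and held 57506901 and 64065785 UMIs of all genes. All barcodes with at least 2000 UMIs, before the other filters, held 75503173 and 79178932 UMIs. Much of these portions is thus the size of the class, and that of Sftpc also follows from the 15% rule.

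No class was free of these transcripts. Every kept cell carried Sftpc UMIs, down to 0.591% of its UMIs (tumor-bearing) and 0.756% (control). Endothelial cells, which line blood vessels and should lack surfactant proteins, had a median of 1.20% Sftpc in 480 tumor-bearing endothelial-like cells and 2.05% in 55 control ones. The medians were 1.12% and 1.76% in ciliated-like cells (223 and 299), 1.00% and 1.61% in AT1-like cells (210 and 345), and 1.39% and 1.90% in the club-like cells of the finer clustering described below (250 and 68). The ranges between quartiles of these 4 classes overlapped in each library, so the classes could not be ordered by Sftpc. The number of Sftpc UMIs per cell differed more, with medians of 38 (tumor-bearing) and 54 (control) in endothelial-like, 57 and 74 in ciliated-like, 69 and 93 in AT1-like, and 324.5 and 242 in club-like cells. The classes with more UMIs per cell thus carried more Sftpc UMIs at a like share. Median depths were 3053 and 2640 UMIs in endothelial-like cells, 5134 and 4397 in ciliated-like, 7804 and 5914 in AT1-like, and 23016 and 12332 in club-like cells.

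Free RNA was read from empty droplets, barcodes with 1 to 100 UMIs, which held 5359717 UMIs (tumor-bearing) and 2321211 (control). Sftpc made up 18.8% of them (tumor-bearing) and 23.3% (control), Sftpa1 2.30% and 2.67%, Sftpb 1.03% and 1.18%, and Sftpd 0.426% and 0.438%. The 4 genes together were 22.5% and 27.5% of free UMIs.

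**Figure D1:**
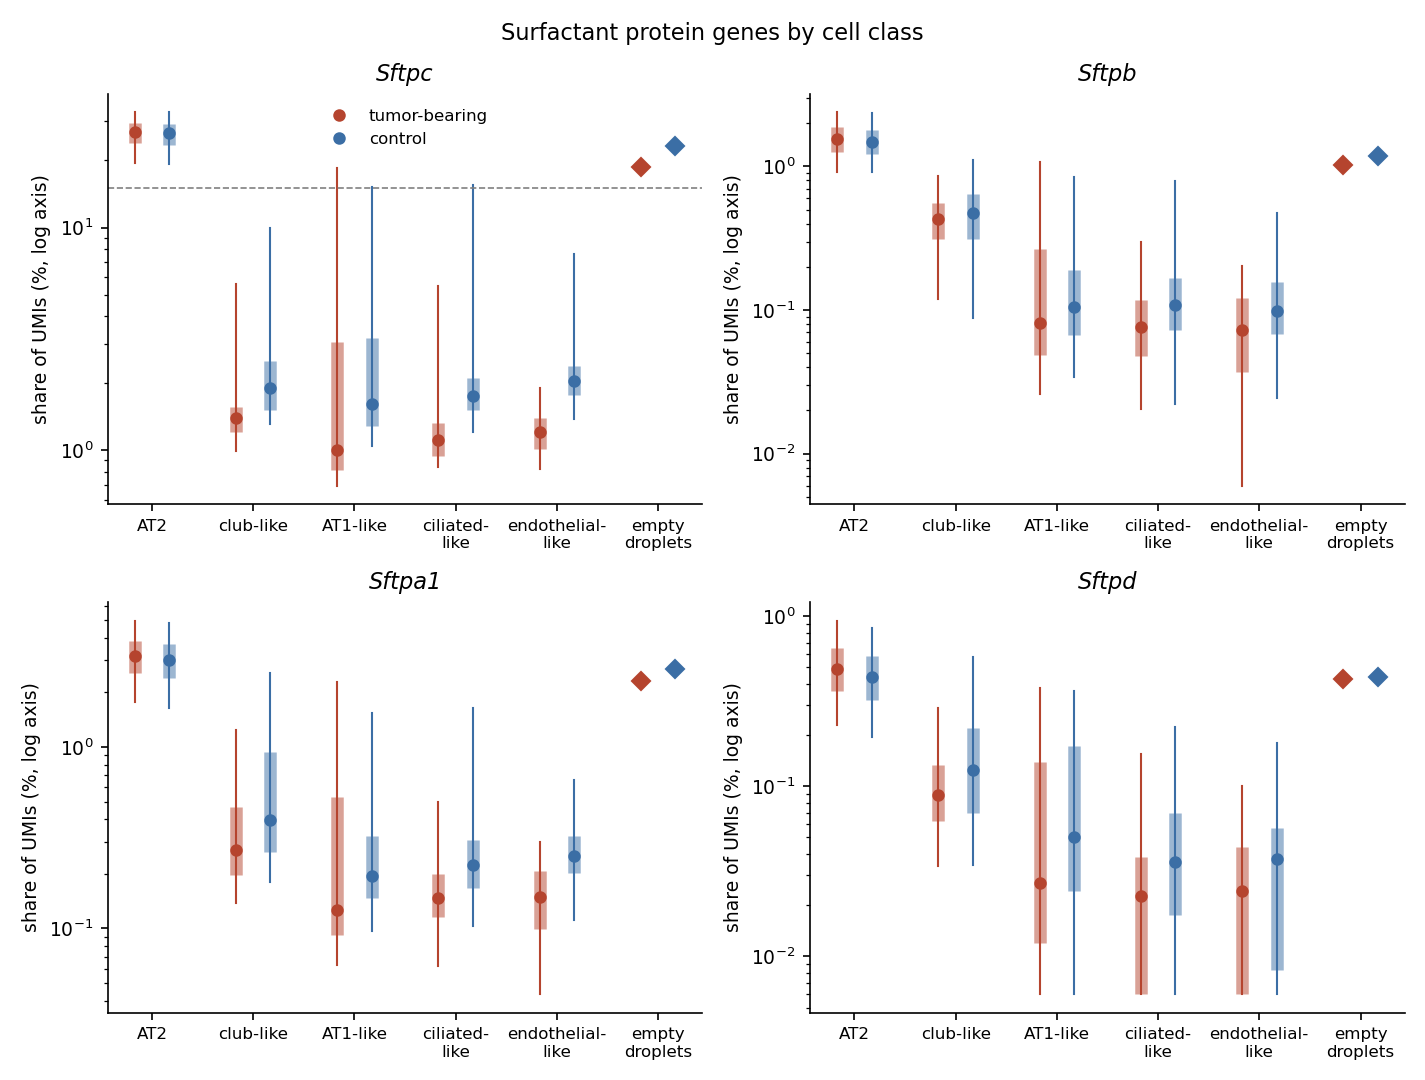
Share of UMIs per cell (%, log axis) of each gene in 5 cell classes of the tumor-bearing (red) and control (blue) library. Points are medians over cells, thick bars quartiles, thin lines the 5th to 95th percentile (values at 0 drawn at the bottom), diamonds the pooled share in empty droplets, and the dashed line the 15% that defines AT2 cells. For Sftpb the club-like medians, 0.427% and 0.473%, lie between those of AT2 cells and those of the AT1-like, ciliated-like and endothelial-like cells.

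Free RNA of 1 source keeps its genes in 1 ratio, so the other 3 genes were set against Sftpc. In empty droplets there were 5.48 (tumor-bearing) and 5.08 (control) Sftpb UMIs, 12.3 and 11.5 Sftpa1 UMIs, and 2.27 and 1.88 Sftpd UMIs per 100 Sftpc UMIs. Endothelial-like cells had 6.33 and 5.56 Sftpb, 13.1 and 11.5 Sftpa1, and 2.20 and 1.91 Sftpd per 100 Sftpc. Ciliated-like cells had 6.73 and 5.93 Sftpb, 12.3 and 11.7 Sftpa1, and 1.85 and 1.82 Sftpd. Over all 3 genes and both libraries, the ratios of these 2 classes were 0.816 to 1.23 times those of empty droplets. AT2 cells themselves lay in the same range, at 1.09 and 1.15 times for Sftpb, 1.00 and 1.03 for Sftpa1, and 0.880 and 0.963 for Sftpd. The ratio therefore does not tell free RNA from RNA of AT2 cells in the same droplet, and no expression was read from the shares of the 4 genes in endothelial-like and ciliated-like cells.

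Club-like cells stood apart. Their cluster, led by the airway genes Bpifa1, Scgb3a1, Scgb3a2 and Scgb1a1, held 285 tumor-bearing and 142 control cells. It had 19.8 Sftpb UMIs per 100 Sftpc (tumor-bearing) and 9.96 (control), which was 3.61 times (interval 3.56 to 3.67) and 1.96 times (1.91 to 2.01) the ratio of empty droplets. For Sftpd the multiples were 2.12 and 1.60, and for Sftpa1 1.58 and 1.39. Finer clustering (resolution 1) split this cluster unequally in the libraries, into club-like cells (249 tumor-bearing and 67 control), cells with basal markers such as Krt5 (24 and 45), and cells rich in both Scgb1a1 and Sftpc (12 and 30). Among the 250 and 68 club-like cells of the finer clustering, Sftpb reached 24.4 (tumor-bearing) and 16.9 (control) per 100 Sftpc. That was 4.45 times (4.39 to 4.52) and 3.33 times (3.23 to 3.44) the ratio in empty droplets. Sftpd stood at 2.54 and 2.72 times, and Sftpa1 at 1.76 and 1.94 times. The basal-like cells had multiples of 1.12 and 1.37 for Sftpb, 0.891 and 1.06 for Sftpa1, and 0.856 and 0.918 for Sftpd.

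If all their Sftpc were free RNA, 77.5% of the Sftpb UMIs of the finer club-like cells (tumor-bearing) and 70.0% (control) lay beyond what comes with it. The same portion was 60.6% and 63.3% for Sftpd and 43.3% and 48.4% for Sftpa1. Counted per cell with Sftpc under 15%, 89.5% of 248 tumor-bearing club-like cells (interval 85.0 to 93.0) and 86.4% of 66 control ones (75.7 to 93.6) had at least 2 times the Sftpb to Sftpc ratio of empty droplets. In endothelial-like cells these shares were 19.9% and 7.41%, in ciliated-like cells 15.8% and 10.6%, and in AT1-like cells 17.4% and 5.81%. Over all cells of each class, the median Sftpb UMIs per cell were 2 and 3 in endothelial-like and 4 and 5 in ciliated-like cells. They were 5 and 6 in AT1-like and 100.5 and 57.5 in club-like cells. The part of counting error in these shares was not tested. For Sftpa1 only 32.3% and 39.4% of the club-like cells reached 2 times the ratio of empty droplets. That multiple lies above the pooled Sftpa1 multiple of the class, and the lower quartile over cells was 1.15 (tumor-bearing) and 1.16 (control) for Sftpa1, with medians of 1.47 and 1.60. For Sftpb the lower quartile was 3.56 and 2.44 and the median 5.22 and 4.10.

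**Figure D2:**
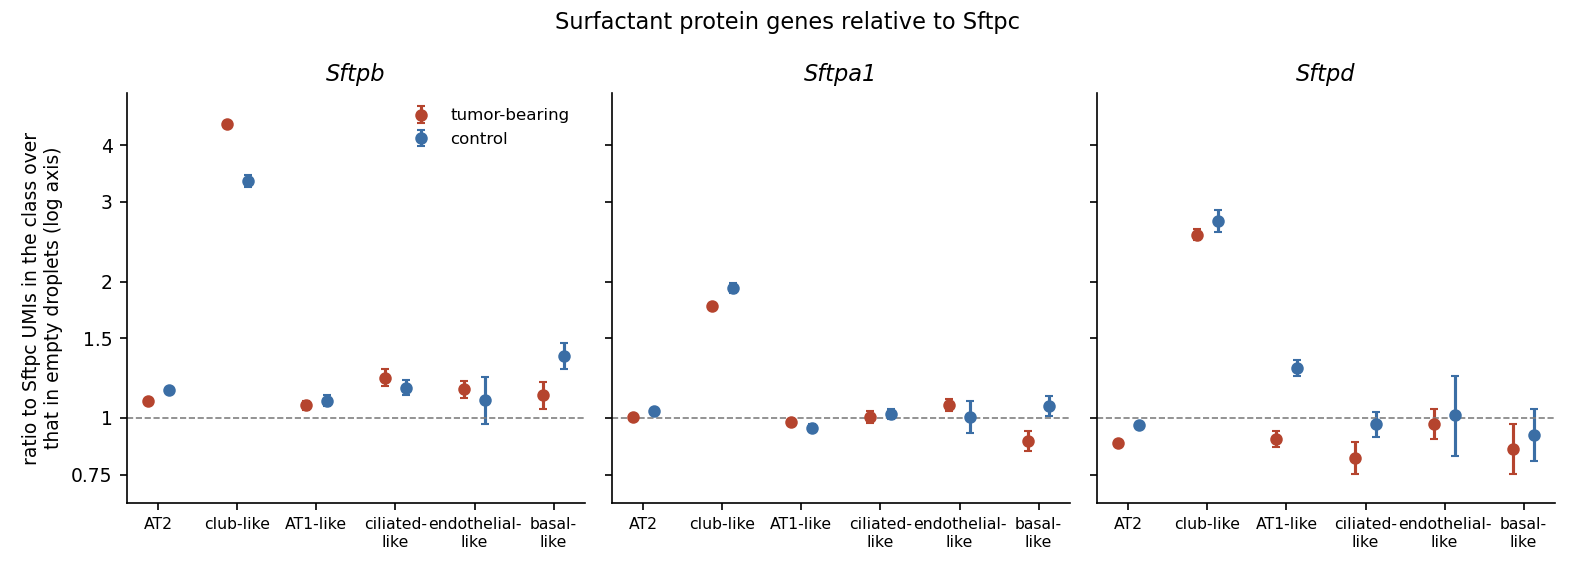
Ratio of Sftpb, Sftpa1 or Sftpd UMIs to Sftpc UMIs in a class, divided by the same ratio in empty droplets of that library (log axis), for the tumor-bearing (red) and control (blue) library; bars are 95% intervals of counting error and the dashed line marks equality. Club-like and basal-like cells are those of the finer clustering; club-like cells are the highest class in all 3 panels.

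Secreted transcripts of the airway fill much of a club cell's library, which lowers every other share. Scgb1a1, which encodes the secretoglobin most typical of club cells, made up 59.8% (tumor-bearing) and 53.8% (control) of the UMIs of the finer club-like cells, against 0.635% and 0.260% in AT2 cells. With the Scgb1a1 and Sftpc UMIs set aside, Sftpb was 1.20% of the remaining UMIs of club-like cells in each library, against 2.15% and 2.10% in AT2 cells. Sftpa1 was 1.07% and 1.58% in club-like cells against 4.44% and 4.25% in AT2 cells, and Sftpd 0.284% and 0.364% against 0.721% and 0.649%. Of the 3 genes, Sftpb came nearest to its AT2 level on this scale, with Sftpd close behind in the control library only. Free RNA was not subtracted from these values, and its part in them was not tested.

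**Figure D3:**
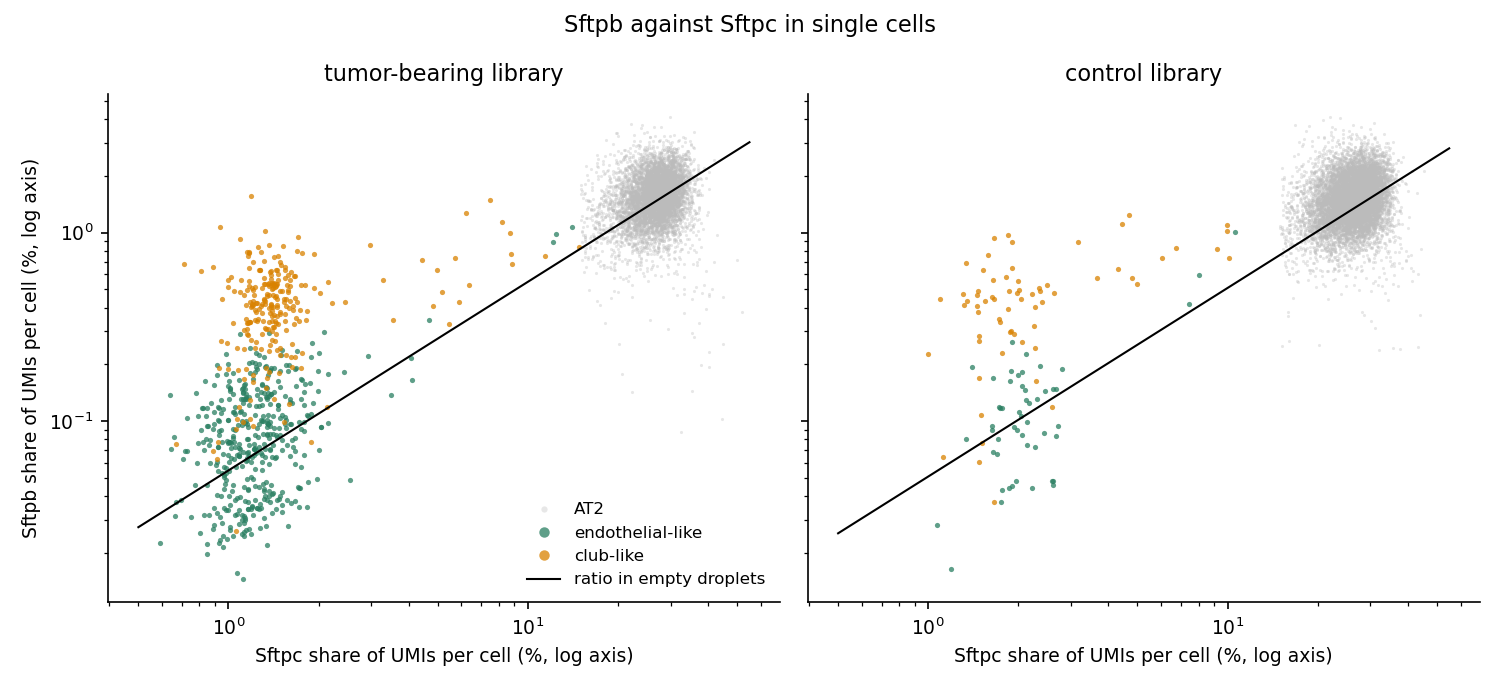
Sftpb share against Sftpc share of UMIs in single cells (%, both axes log; cells without Sftpb UMIs are not drawn), tumor-bearing library left and control library right. Endothelial-like cells (green) scatter around the line of the empty-droplet ratio, club-like cells of the finer clustering (orange) lie above it at the same Sftpc share, and AT2 cells (grey) lie on it at over 15% Sftpc.

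AT1-like cells, named for the thin type 1 cells that cover most of the alveolar wall, lay near the free-RNA ratio for Sftpb (1.07 and 1.09 times the empty-droplet ratio) and Sftpa1 (0.980 and 0.951 times) in both libraries. Sftpd differed between the libraries, at 0.897 times (0.861 to 0.935) in tumor-bearing and 1.29 times (1.24 to 1.34) in control cells. The cluster held 32 tumor-bearing and 18 control cells with at least 15% Sftpc. Among AT1-like cells with under 3% Sftpc (157 tumor-bearing and 256 control), the quartiles of the Sftpd share were 0, 0.0173 and 0.0308% in the tumor-bearing library, against 0.0188, 0.0337 and 0.0715% in the control library. In ciliated-like cells under the same limit they were 0, 0.0214 and 0.0363% against 0.0136, 0.0305 and 0.04995%. The 90th percentile of control AT1-like cells was 0.174%, against 0.0778% in control ciliated-like cells. Each of these Sftpd values was higher in control AT1-like than in control ciliated-like cells, at a lower Sftpc median (1.42% against 1.69%). Of the AT1-like cells with Sftpc under 15%, 14.6% of the tumor-bearing (9.77 to 20.7) and 29.97% of the control ones (25.1 to 35.3) had at least 2 times the free Sftpd to Sftpc ratio. In endothelial-like cells these shares were 16.6% and 12.96%. All these Sftpd values rest on few UMIs per cell. Over all cells of the class the median was 2 (tumor-bearing) and 3 (control) Sftpd UMIs in AT1-like cells. It was 1 and 2 in ciliated-like cells, and 1 in endothelial-like cells of each library. Depth differed between these classes, as given above, and its part in the Sftpd differences was not tested.

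Between the libraries the 4 genes lay close together in AT2 cells. Sftpd differed most, at 5267 CPM in tumor-bearing and 4768 CPM in control cells, a 1.10-fold ratio (1.10 to 1.11). Sftpa1 stood at 1.04-fold (32397 against 31216 CPM), Sftpb at 1.02-fold (15718 against 15402 CPM) and Sftpc at 1.00-fold (263496 against 262784 CPM). A gene was called different with at least 50 CPM in either library, a ratio of at least 2-fold and separate Poisson intervals. None of the 4 genes was called, against 10 of 1776 genes (0.563%) over the whole profile. The median log2 ratio of those genes was -0.048, while that of the 4 members was 0.0039 (Sftpc), 0.029 (Sftpb), 0.054 (Sftpa1) and 0.14 (Sftpd). In empty droplets the log2 ratios were -0.31, -0.20, -0.22 and -0.041 in the same order of genes. Scgb1a1, a club cell transcript, made up 11.4% (tumor-bearing) and 1.40% (control) of free UMIs. Its part in these ratios was not tested. Over the free UMIs outside Scgb1a1 and Sftpc, Sftpb was 1.47% against 1.57%, Sftpa1 3.29% against 3.54% and Sftpd 0.610% against 0.582%.

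AT2 cells were also compared inside the 9 clusters that were named AT2-like or left unnamed because AT2 markers stood beside those of another type. Sftpd was higher in the tumor-bearing library in 8, with ratios of 0.896 to 1.15 over the 9. The exception was the small cluster led by cell division genes such as Top2a, with 27 tumor-bearing and 9 control cells. Sftpc was higher in 6 and lower in 3 clusters (0.965 to 1.06), Sftpa1 in 6 and 3 (0.877 to 1.06), and Sftpb in 5 and 4 (0.927 to 1.05). Clusters differed more from each other than the libraries did. The libraries fell unequally into some clusters. The one led by Nrn1 and Apoc1 held 417 tumor-bearing and 3629 control AT2 cells, and the one led by Lyz1 and Retnla 2440 and 200. The one led by Cxcl1 and Areg held 1946 and 2338. Whether the cells of a cluster were in a like state in both libraries was not tested. Among the 4 clusters with at least 200 cells in each library, the one led by Ctsh and the MHC class II chain gene Cd74 had the highest Sftpd, 0.621% in tumor-bearing and 0.553% in control cells. It also had less Sftpc (24.7% and 25.2%) than the cluster led by Nrn1 and Apoc1, whose Sftpc was 28.9% and 28.0% and whose Sftpd was 0.477% and 0.453%. The dividing AT2 cells had the lowest Sftpc of all 9 clusters, 19.7% and 20.4%. Their Sftpb (1.12% and 1.21%) was also the lowest of the 9. The whole dividing cluster held 34 tumor-bearing and 15 control cells, and the 15% rule left those with less Sftpc out of these values.

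In the endothelial-like class the tumor-bearing library stood at 0.628 (Sftpc), 0.715 (Sftpb), 0.712 (Sftpa1) and 0.724 (Sftpd) times the control level, and in ciliated-like cells at 0.712, 0.807, 0.748 and 0.723 times. In AT1-like cells it stood at 1.40, 1.47, 1.54 and 1.17 times, and the sign turned for all 4 genes without the cells of at least 15% Sftpc. The pooled shares were then 3.31% against 4.05% for Sftpc, 0.210% against 0.237% for Sftpb, 0.455% against 0.463% for Sftpa1 and 0.0828% against 0.106% for Sftpd. The medians over all AT1-like cells also lay lower in the tumor-bearing library, 1.00% against 1.61% for Sftpc, 0.0819% against 0.105% for Sftpb, 0.127% against 0.195% for Sftpa1 and 0.0270% against 0.0504% for Sftpd. None of the 4 was called in endothelial-like (3.42% of genes called), ciliated-like (1.44%) or AT1-like cells (2.59%). In the club-like cluster Sftpc (0.367 times) and Sftpa1 (0.444 times) were called, where 8.01% of all genes were. In the finer club-like cells none of the 4 was called (1.66% of genes), with Sftpc at 0.616, Sftpb at 0.886, Sftpa1 at 0.599 and Sftpd at 0.691 times. The median log2 ratio of all genes tested was itself -0.48 in the club-like cluster and -0.20 in the finer club-like cells. Sftpb lay near that median in both, at -0.46 and -0.17. Empty droplets of the tumor-bearing library held Sftpc at 0.806 times the control share. The part of free RNA in these differences was not tested.

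Genes that process surfactant and build the lamellar body, a list of 18, showed small differences of both signs in AT2 cells. Of the 15 with at least 20 CPM in either library, 10 lay above and 5 below 0, with a median log2 ratio of 0.065. Of all 4015 genes at that level, 1533 lay above and 2482 below 0, with a median of -0.044. None of the 15 list genes was called by the 2-fold rule, against 0.563% of all genes tested. Pcyt1a, Nedd4l and Rab38 lay under 50 CPM in both libraries, so the rule could not call them. Plin2, which coats lipid droplets, was at 61.7 CPM in tumor-bearing and 37.9 CPM in control cells (1.63-fold). Lpcat1, which makes the saturated phosphatidylcholine of surfactant, was at 579 against 484 CPM (1.20-fold). The ubiquitin ligase gene Nedd4l was at 22.9 against 19.6 CPM (1.17-fold), and Lamp3, a lamellar body membrane protein, at 582 against 534 CPM (1.09-fold). On the lower side were the lipid synthesis genes Scd1 (390 against 594 CPM, 0.656 times) and Fasn (203 against 248 CPM, 0.817 times). Pcyt1a, which makes the choline donor of phosphatidylcholine synthesis, was at 19.7 against 26.1 CPM (0.755 times), and the phosphate transporter gene Slc34a2 at 2036 against 2208 CPM (0.922 times). Abca3, the lipid pump of the lamellar body, was at 363 against 360 CPM.

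Of 12 listed transcription factors known to act on surfactant genes, 11 had at least 20 CPM, with 2 above and 9 below 0 and a median log2 ratio of -0.096. Most genes at that level also lay below 0, as given above, and the difference from them was not tested. None of the 11 was called, against 0.563% of all genes tested. Foxa1, Gata6, Nr3c1 and Elf3 lay under 50 CPM in both libraries, so the rule could not call them. Foxa2 was at 41.5 CPM in tumor-bearing and 51.4 CPM in control cells (0.807 times), Etv5 at 234 against 280 CPM (0.837 times), Nkx2-1 at 140 against 153 CPM (0.913 times) and Cebpa at 231 against 250.3 CPM (0.922 times). Those above 0 were Gata6 (1.04-fold) and Stat3 (1.02-fold).

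Across single AT2 cells the 4 genes differed in how evenly they were expressed. Sftpc was the most even of the 4. Its share ran from a lower quartile of 24.0% over a median of 26.8% to an upper quartile of 29.3% in the tumor-bearing library, and from 23.5% over 26.5% to 29.2% in the control library. Beyond counting error its coefficient of variation (CV, the SD as a percent of the mean) was 15.3% and 15.7%. The rule removes AT2 cells with low Sftpc, and in AT2-like clusters made without the 4 genes the CV was 16.8% and 17.1%. Sftpb had a CV of 27.6% and 27.3%, Sftpa1 29.6% and 30.3%, and Sftpd 39.4% and 40.3%. Sftpd quartiles were 0.363, 0.490 and 0.649% in tumor-bearing and 0.322, 0.439 and 0.581% in control cells. The order of CVs was the same in both libraries. Counting error made up 13.2% and 17.3% of the Sftpd variance, and the order is that after its subtraction. Among other genes as abundant as the lowest member, 10 (tumor-bearing) and 9 (control), none had a CV below that of Sftpc, and their medians were 46.9% and 45.8%. Among all 1680 and 1721 genes with at least 50 CPM, 24.1% and 30.3% had a CV below that of Sftpc, and the median CVs were 26.6% and 24.9%.

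**Figure D4:**
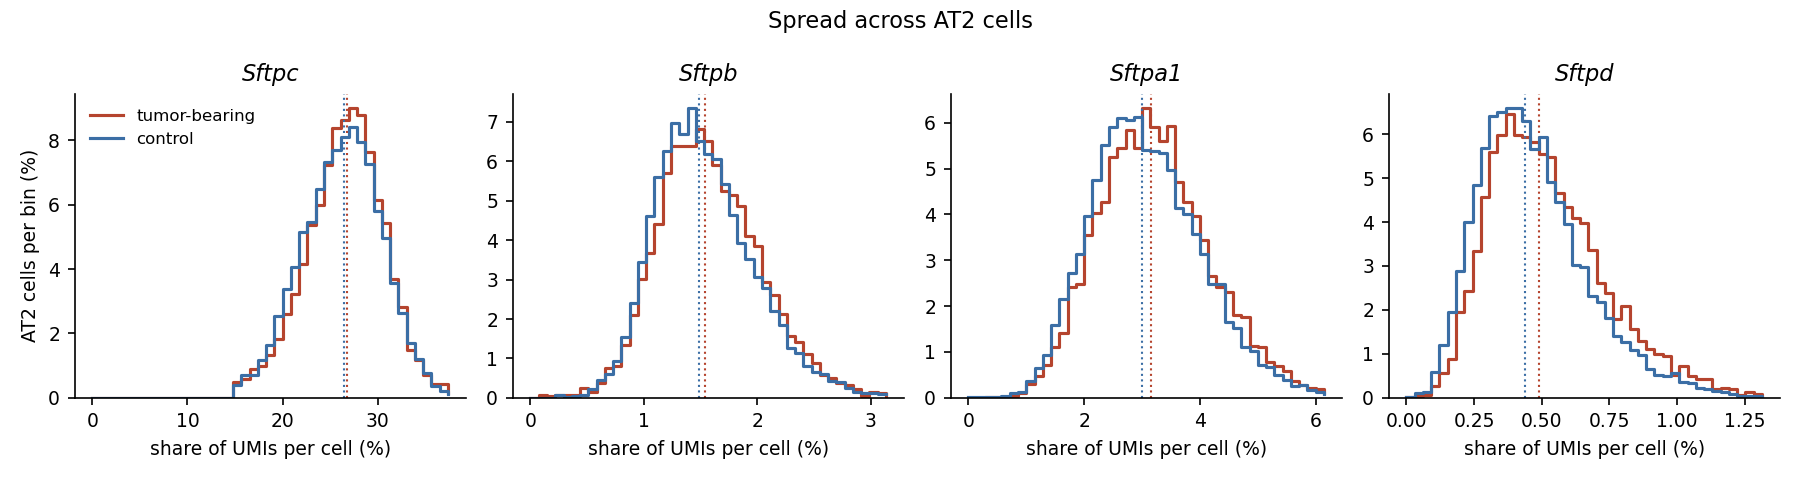
Distribution over AT2 cells of the share of UMIs (%) of each gene, as percent of the cells of that library per bin, for 6263 tumor-bearing (red) and 9082 control (blue) cells; dotted lines are medians. The Sftpc panel ends at the 15% of the rule, and the curves of the libraries overlap in all panels, with the Sftpd median at 0.490% in tumor-bearing and 0.439% in control cells.

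With AT2 cells split into 4 equal groups by depth, the deepest had a median Sftpa1 share of 3.26% (tumor-bearing) and 3.2005% (control), against 3.02% and 2.80% in the shallowest. For Sftpd these were 0.517% and 0.471% against 0.479% and 0.422%. Sftpc went down with depth in the tumor-bearing library (25.9% in the deepest, 27.3% in the shallowest group) and was 26.6% against 26.3% in the control library.

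The 4 genes co-varied unequally from cell to cell. With shares taken over the UMIs outside the 4 genes and counting error subtracted, Sftpa1 and Sftpd had the highest correlation, 0.61 over 6263 tumor-bearing and 0.66 over 9082 control AT2 cells. These are the collectin genes that neighbour each other on chromosome 14. Sftpc and Sftpb, the hydrophobic proteins, had 0.40 and 0.42, Sftpc and Sftpa1 0.38 and 0.37, and Sftpb and Sftpa1 0.36 and 0.38. Sftpb and Sftpd had 0.25 and 0.33. Sftpc and Sftpd were lowest at 0.15 and 0.21. Over the 6 pairs the median was 0.37 (tumor-bearing) and 0.38 (control). The values depended on the scale. With shares of all UMIs the medians were 0.18 and 0.22, Sftpc and Sftpd had -0.053 and 0.0073, and Sftpa1 and Sftpd kept 0.57 and 0.62. Cells of 1 library share their mouse, preparation and denominator, so these values are descriptions.

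**Figure D5:**
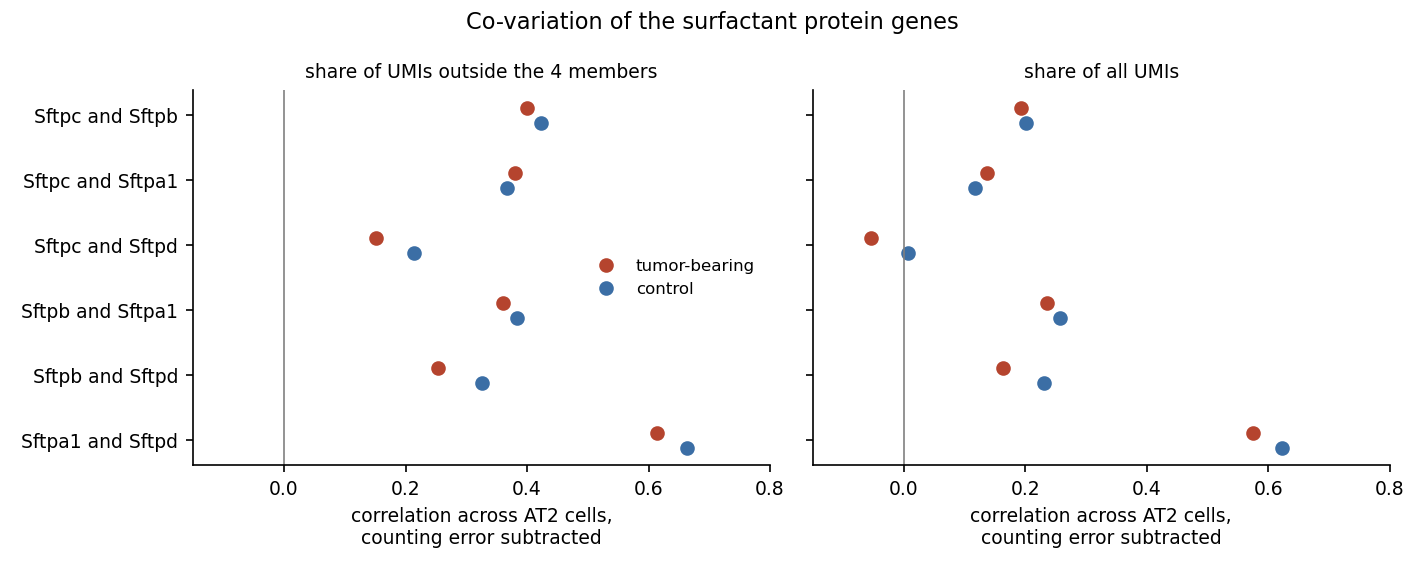
Correlation across AT2 cells of each pair of surfactant protein genes, with counting error subtracted, for the tumor-bearing (red) and control (blue) library; left, shares of the UMIs outside the 4 genes, right, shares of all UMIs. Sftpa1 and Sftpd have the highest value in both panels and Sftpc and Sftpd the lowest.

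Among 828 other genes with at least 100 CPM in AT2 cells of both libraries, Napsa had the highest correlation with each of the 4 genes. Napsa encodes napsin A, an aspartic protease that cuts the precursors of SP-B and SP-C. Without subtraction of counting error, on log shares, its correlation was 0.53 (tumor-bearing) and 0.50 (control) with Sftpb, 0.36 and 0.35 with Sftpa1, 0.35 and 0.34 with Sftpc, and 0.34 and 0.34 with Sftpd. The median gene had a mean correlation between -0.012 and 0.0030 with the members. After Napsa, the genes closest to Sftpc were Lyz2 (mean of both libraries 0.30), Cxcl15 (0.27), Chil1 (0.27) and Npc2 (0.27). For Sftpb they were Chil1 (0.30), the MHC class I gene H2-D1 (0.28), the tight junction gene Cldn3 (0.25) and Wfdc2 (0.23). Sftpa1 and Sftpd shared 3 more of their 5 closest genes, the lysosomal protease gene Ctsc (0.35 and 0.32), Wfdc2 (0.35 and 0.32) and the chitinase gene Chia1 (0.29 and 0.28). The remaining one was Cox6a2 (0.30) for Sftpa1 and Ctsh (0.28), another protease that acts on surfactant precursors, for Sftpd.

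Within the finer club-like cells with Sftpc under 15% (248 tumor-bearing and 66 control), the 4 genes were set against 457 genes with at least 100 CPM. This comparison was chosen after seeing the data, and its shares leave out the UMIs of the 4 genes and of Scgb1a1. Sftpb correlated most with Npc2, a sterol-binding protein gene (0.65 (tumor-bearing) and 0.68 (control)), and with Hp, which encodes haptoglobin (0.60 and 0.65). Next were Cxcl15, one of the fixed AT2 markers (0.40 and 0.59), Prdx6, a peroxiredoxin that also acts on phospholipid (0.52 and 0.46), and Scgb1a1 (0.33 and 0.64). It ran against Bpifa1, an airway defence protein gene (-0.61 and -0.75), the lactoferrin gene Ltf (-0.63 and -0.70), Scgb3a1 (-0.64 and -0.49), Lypd2 (-0.47 and -0.55) and Cyp2a5 (-0.42 and -0.61). Each of these signs was the same in both libraries. These genes were chosen by their mean correlation over both libraries, so the shared sign is no separate check. Of the 12 fixed club markers 9 were measured at that level, and 6 had a correlation with Sftpb above 0 in both libraries. They were Cyp2f2 (0.50 and 0.37), Cbr2 (0.50 and 0.46), Pon1 (0.22 and 0.33), Gsta3 (0.24 and 0.29), Aldh1a1 (0.19 and 0.27) and Scgb1a1. The other 3, Bpifa1, Scgb3a1 and Scgb3a2 (-0.12 and -0.18), were below 0. Part of the pattern was shared with Sftpc, taken here as a measure of free RNA and mixed droplets. Sftpc had 0.34 and 0.51 with Npc2, -0.28 and -0.46 with Ltf, -0.23 and -0.49 with Bpifa1 and -0.19 and -0.37 with Lypd2. Npc2 was also among the 5 highest genes for Sftpa1 and Sftpd. In AT2 cells, Npc2 and Cxcl15 were among the 5 genes closest to Sftpc, as given above. Of the 9 club markers, 4 had a correlation with Sftpc above 0 in both libraries and 5 below 0. Above 0 were Scgb1a1 (0.28 and 0.29), Cbr2 (0.17 and 0.23), Pon1 (0.12 and 0.22) and Gsta3 (0.078 and 0.074). Below 0 were Cyp2f2 (-0.096 and -0.041), Aldh1a1 (-0.13 and -0.098), Bpifa1, Scgb3a1 and Scgb3a2. With Sftpa1, 3 were above and 3 below 0 in both libraries, and with Sftpd 3 and 4. Sftpb and Sftpc themselves had 0.40 and 0.63 in these cells.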

How the data were processed

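The 2 droplet libraries, 1 per group, had been run through Cell Ranger 2.1.0 at default parameters, per the series design, and R 3.5.3, Seurat and the build mm10 are named in the submitters' processing notes. The values deposited by the authors are whole-number UMI counts, not normalised, for each gene in all 737280 barcodes, before any call of cells. Symbols and identifiers were taken as deposited.

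Barcodes with at least 2000 UMIs, at least 500 genes and at most 20% mitochondrial UMIs were kept (Python 3.11.15, scanpy 1.11.5). Scrublet's automatic threshold marked 0 cells, so the highest scores were removed up to 0.8% per 1000 barcodes (533 tumor-bearing and 966 control), and mixed droplets can remain. Cells were clustered without the 4 genes (2000 variable genes with library as batch, 30 principal components, 15 neighbours, Leiden resolution 0.5 or 1). Clusters were named from marker lists by their mean log2 fold, and stayed unnamed with fewer than 3 detected markers or with AT2 markers raised beside another list's. This rule for names was chosen with the data in view. Classes were rebuilt here and need not match any made by the submitters.

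Counts were summed per class and library. Shares have Clopper-Pearson, CPM values exact Poisson and ratios conditional binomial intervals. The Poisson variance was subtracted for spread and correlation, and these steps were checked on simulated data. Coordinates are from GENCODE vM21, which held 28339 of the 28692 identifiers. The members, lists and tests were chosen with earlier results of these data known. Named were the members, the 5 genes most correlated with each, up to 4 list genes per direction, and cluster markers; others were chosen after their values were seen. Alternatives covered the UMI minimum, the AT2 rule, doublets, the share's denominator, the mitochondrial limit, clustering and the range of empty droplets.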

Additional observations from a re-analysis of the deposited data

Results flagged for a closer look

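The tumor-bearing over control ratio of Sftpb, Sftpa1 and Sftpd lay above 1 in AT2 cells and below 1 in 3 further classes. Sftpc also lay below 1 in these classes but was level in AT2 cells. Its log2 ratio there was 0.0039, and -0.0051 with Sftpc at least 25%. The difference between classes was not tested. In AT2 cells the folds were 1.00 (Sftpc), 1.02 (Sftpb), 1.04 (Sftpa1) and 1.10 (Sftpd). In the club-like cluster they were 0.367, 0.729, 0.444 and 0.588 in the same order of genes, and 0.616, 0.886, 0.599 and 0.691 in the club-like cells of the finer clustering. In ciliated-like cells they were 0.712, 0.807, 0.748 and 0.723, and in endothelial-like cells 0.628, 0.715, 0.712 and 0.724. In AT1-like cells the pooled folds were 1.40, 1.47, 1.54 and 1.17, and the sign turned for all 4 genes without the cells of at least 15% Sftpc. In empty droplets they were 0.806, 0.869, 0.861 and 0.972. Each of these folds rests on 1 library per group. The median log2 ratio of all genes tested was -0.048 in AT2 cells, -0.48 in the club-like cluster and -0.20 in the finer club-like cells. It was 0.036 in ciliated-like, -0.014 in endothelial-like and -0.12 in AT1-like cells. Sftpb lay near that median in both club-like groupings, at -0.46 and -0.17.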

How the results depend on the processing

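No paired analysis was possible because each group has 1 library and no test was made. Leaving out a replicate would leave no library in a group. Precision is limited by the 55 control endothelial-like and 68 control club-like cells and by free RNA in every droplet. No member was called between the libraries in AT2 cells under any alternative.

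In AT2 cells the log2 ratio of Sftpc ran between -0.0051 and 0.017. It was 0.0054 with a minimum of 1000 UMIs, 0.0016 with 4000, 0.0064 with Sftpc at least 5%, -0.0051 with at least 25%, 0.017 in AT2-like clusters, 0.0096 over UMIs outside the members, 0.016 as the median over cells and 0.015 with the 15% rule inside AT2-like clusters, which was chosen after seeing the data. Sftpb had 0.038 with at least 25%, 0.049 in AT2-like clusters, 0.035 outside the members, 0.056 as the median and 0.047 inside AT2-like clusters. Sftpa1 had 0.058 with 1000 UMIs, 0.061 with at least 25%, 0.075 in AT2-like clusters, 0.059 outside the members, 0.077 as the median and 0.075 inside AT2-like clusters. Sftpd had 0.12, 0.16, 0.16 and 0.16 with at least 25%, AT2-like clusters, the median and the rule inside AT2-like clusters.

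The club-like multiples stayed above 1 in every alternative, and the control ones moved most. For Sftpb they were 3.99 (tumor-bearing) and 2.39 (control) with 1000 UMIs, 3.10 and 1.55 with 4000, 4.59 and 2.96 without cells of at least 15% Sftpc, 3.31 and 2.52 with doublets kept, 4.45 and 3.33 at resolution 1, and 4.18 and 1.495 with separate clustering. In control cells Sftpb was 1.80 against empty droplets of 1 to 10 UMIs and 2.13 against those of 11 to 100. For Sftpa1 they were 1.65 and 1.45 with 1000 UMIs, 1.52 and 1.15 with 4000, 1.81 and 1.74 without cells of at least 15% Sftpc, 1.76 and 1.94 at resolution 1, and 1.68 and 1.18 with separate clustering. Sftpa1 was 1.66 with doublets kept (control), 1.75 and 1.45 against droplets of 1 to 10 UMIs and 1.53 and 1.35 against 11 to 100. For Sftpd they were 2.30 and 1.80 with 1000 UMIs, 1.94 and 1.22 with 4000, 2.60 and 2.26 without cells of at least 15% Sftpc, 2.02 and 2.14 with doublets kept, 2.54 and 2.72 at resolution 1, and 2.38 and 1.22 with separate clustering. Tumor-bearing Sftpd was 2.38 against droplets of 1 to 10 UMIs and 2.04 against 11 to 100. The control cluster holds basal-like and Sftpc-rich cells, as the split at resolution 1 showed.

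The median correlation of the 6 pairs was 0.25 (tumor-bearing) and 0.30 (control) with Sftpc at least 25%, 0.18 and 0.22 over all UMIs, and 0.43 in control cells with Sftpc at least 5%. With a minimum of 4000 UMIs the pooled Sftpc share of endothelial-like cells was 13.8% and 16.3%, against 1.95% and 3.11%; the cause was not tested. The CVs in AT2 cells kept their order when cells were thinned to 2000 UMIs.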

Other observations

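Other pairings of the surfactant genes in club-like cells of the finer clustering, chosen after their values were seen, are given as values. Sftpd correlated with Ager, known as an AT1 marker, at 0.50 (tumor-bearing) and 0.49 (control), and with Fhl1 at 0.42 and 0.52. It ran against the secretoglobin gene Scgb3a2 at -0.31 and -0.52. Sftpa1 correlated with Ager at 0.34 and 0.55 and with Sftpd at 0.41 and 0.69. Sftpc correlated most with Cd74, at 0.59 and 0.39.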
